A study of Mus musculus with 4 samples.

Results

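Serpina12 and the Serpina3 genes, a run of neighbouring serine protease inhibitor (serpin) genes on mouse chromosome 12, were examined in single cells of mouse bone and bone marrow. The members were taken by symbol from the 32285 genes of the count matrices. They were Serpina3c, Serpina3f, Serpina3g, Serpina3i, Serpina3m, Serpina3n and Serpina12, which is 7 of 8 listed symbols. Serpina3h, annotated by RefSeq as a transcribed pseudogene, is not analysed here. The genes had been picked for their levels in marrow stroma and between the ages, so those levels are given as a description without a test.

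Cells of femur and tibia were measured by CITE-seq, which reads mRNA and an oligonucleotide-tagged antibody, here against CD24, in each cell. They came from 1 young mouse of 6 months and 1 old mouse of 24 months, both INK-ATTAC and both without treatment. Both carry the INK-ATTAC transgene, in which part of the p16Ink4a promoter drives a caspase 8 that a drug can switch on. Live cells were sorted after depletion of blood lineages and without CD45, so the shares of cell groups are those of the sort. With 1 mouse per age, a difference between the ages cannot be told apart from a difference between animals or libraries.

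Serpins act as bait for proteases: the protease cuts an exposed loop and is then trapped on the inhibitor. The human genome has a single SERPINA3 gene, coding for alpha-1-antichymotrypsin, an acute phase protein of the liver, whereas the mouse has a row of copies that differ in the bait loop. Serpina3n codes for a secreted inhibitor of granzyme B and leukocyte proteases, Serpina3g for an inhibitor of cysteine cathepsins inside cells, and Serpina12 for vaspin, a secreted adipose tissue protein that inhibits kallikrein 7. Marrow stromal cells that carry the leptin receptor (Lepr) line the sinusoids, make Cxcl12 and the Kit ligand for blood stem cells, and share genes such as Adipoq with adipocytes.

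In the GRCm38 build (mm10), Serpina12 lies on the minus strand at chr12:104028769-104044443, 68280 bases from Serpina3a, the first of 14 Serpina3 copies, of which 4 are pseudogenes. Serpina3c follows at chr12:104146907-104153929 on the minus strand, and Serpina3f at chr12:104214544-104221129 and Serpina3g at chr12:104236147-104241939 lie side by side on the plus strand. Serpina3i (chr12:104263045-104269509), Serpina3m (chr12:104387157-104394259) and Serpina3n (chr12:104406646-104414334) come after them.

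The sequences just before the gene starts are shown because these neighbours had different patterns across cells and their promoters are related to different degrees. They are RefSeq sequences of GRCm38.p6, found for 6 of the 8 symbols (not Serpina3m and Serpina3h), written 5′ to 3′ on the strand of the gene and ending at the base before the annotated gene. Capitals mark matches, on either strand, to TTCNNNGAA, the letters bound by STAT factors, and to TTGCNNAA, letters of C/EBP factors.
Serpina12, chr12:104044444-104044693, minus strand: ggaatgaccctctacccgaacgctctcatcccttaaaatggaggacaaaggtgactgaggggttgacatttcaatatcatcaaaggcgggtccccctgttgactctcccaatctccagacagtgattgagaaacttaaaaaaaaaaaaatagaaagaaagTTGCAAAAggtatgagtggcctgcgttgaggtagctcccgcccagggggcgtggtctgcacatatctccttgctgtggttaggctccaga
Serpina3c, chr12:104153930-104154122, minus strand: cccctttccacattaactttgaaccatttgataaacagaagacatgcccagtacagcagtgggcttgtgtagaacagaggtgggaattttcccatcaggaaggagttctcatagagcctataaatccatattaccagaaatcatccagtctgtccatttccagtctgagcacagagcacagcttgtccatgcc
Serpina3f, chr12:104214294-104214543, plus strand: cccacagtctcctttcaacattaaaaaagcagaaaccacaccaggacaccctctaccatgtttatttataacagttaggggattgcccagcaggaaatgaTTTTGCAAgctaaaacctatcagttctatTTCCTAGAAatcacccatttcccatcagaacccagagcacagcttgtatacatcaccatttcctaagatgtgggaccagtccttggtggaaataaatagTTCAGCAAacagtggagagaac
Serpina3g, chr12:104235897-104236146, plus strand: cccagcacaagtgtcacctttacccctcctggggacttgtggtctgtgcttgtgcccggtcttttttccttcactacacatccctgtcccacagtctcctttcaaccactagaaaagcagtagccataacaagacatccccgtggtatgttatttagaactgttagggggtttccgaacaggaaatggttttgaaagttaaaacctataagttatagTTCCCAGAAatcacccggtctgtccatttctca
Serpina3n, chr12:104406458-104406645, plus strand: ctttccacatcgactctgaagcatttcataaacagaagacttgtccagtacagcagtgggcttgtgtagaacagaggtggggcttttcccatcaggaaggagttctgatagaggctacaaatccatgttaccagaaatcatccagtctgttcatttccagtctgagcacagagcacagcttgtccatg
The upstream sequences of Serpina3c and Serpina3n were identical at 92.6% of aligned bases, 174 of 188, and those of Serpina3f and Serpina3g at 82.9%, 126 of 152. Serpina12 and Serpina3n shared 59.1%. The letters were searched in 250 bases, of which 57 in Serpina3c, 77 in Serpina3i and 62 in Serpina3n lie inside the annotated gene. TTCNNNGAA was found in Serpina3f, Serpina3g and Serpina3i and in 7.02% of 32851 RefSeq promoters of that length. TTGCNNAA was found in Serpina12 and Serpina3f and in 9.56% of all promoters, and ACANNNTGT, part of a glucocorticoid receptor site, in Serpina3c, Serpina3f, Serpina3i and Serpina3n and in 5.84%. None of these 6 held the letters searched for the interferon-stimulated response element, which 2.98% of promoters held. The ACANNNTGT match of Serpina3i lies inside the annotated gene. A match is a string of letters and not a bound site, and TTCNNNGAA and TTGCNNAA did not overlap in the sequences shown.

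After the filter, 10063 young and 5607 old cells remained, with 81076421 and 66702846 unique molecular identifiers (UMIs), each of which stands for 1 captured RNA molecule. Cells were grouped by how many genes of a marker list had a UMI, and 3121 young and 1908 old cells formed the marrow stromal group. Levels are given as CPM, the UMIs of a gene scaled to a total of 1000000 UMIs in the group, with exact Poisson 95% intervals that cover counting error only. All 7 stromal markers (Lepr, Adipoq, Cxcl12, Kitl, Foxc1, Ebf3 and Gas6) were present, with a summed level of 32779 CPM in the younger mouse and 29383 in the older. Neutrophil markers summed to 3635 and 4683 CPM in that group, osteoblast markers to 7707 and 5152, erythroid markers to 969 and 202, and fibroblast markers to 435 and 379. Of 6 hepatocyte markers, 4 were at 0 in young and 3 in old stromal cells. Stromal cells with exactly 5 of the 7 markers, the fewest the gate allowed, were 7.88% of the young group and 8.39% of the old one. A 3′ library counts molecules, so a level does not grow with the length of the gene. Reads that match several Serpina3 copies can be dropped or assigned to one of them, so values of single copies are uncertain by an amount that was not measured here.

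Serpina12 was the member most limited to marrow stroma. It had 4245 UMIs in young and 5655 in old stromal cells, or 213 (207 to 219) and 317 (309 to 325) CPM. These cells were 31.0% and 34.0% of all cells and held 97.9% and 98.1% of the Serpina12 UMIs. The level in stroma was 377 times (253 to 589) that of the other groups together in the younger mouse and 290 times (212 to 408) in the older, rank 22 of 16823 genes by the smaller of the 2 ratios.

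Serpina3g and Serpina3f had the same outline. Serpina3g, the cathepsin inhibitor, was at 229 (222 to 235) CPM in young and 211 (204 to 217) in old stroma, and stroma held 96.9% and 96.4% of its UMIs. Serpina3f, the gene beside it, was at 96.4 (92.1 to 101) and 94.3 (89.9 to 99.0), with 96.7% and 95.7% in stroma. The ratio of stroma to the other groups was 202 and 100 for Serpina3g and 128 and 78.2 for Serpina3f.

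Serpina3c, a copy known from adipose tissue, was also highest in stroma but had a second site in fibroblasts. Its level in stroma was 137 (132 to 142) CPM young and 93.8 (89.4 to 98.4) CPM old. Fibroblasts, cells with Pi16, Dpt and Clec3b, had 20.0 and 19.7 CPM and held 12.3% and 12.7% of the gene's UMIs. No other group of at least 50 cells passed 5 CPM in either mouse.

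Serpina3n, the broadest and by total UMIs the most abundant member (13846 young and 9570 old), reached high levels in stroma, fibroblasts, tendon or periosteum and cartilage cells. In the young mouse the level was 369 (361 to 377) in stroma, 215 (209 to 222) in fibroblasts, 133 (116 to 153) in the tendon or periosteum group and 83.7 (66.2 to 104) in chondrocytes. Of the 79 chondrocyte UMIs, 19 came from 1 cell. In the old mouse the order at the top was turned, with 288 (279 to 298) in fibroblasts, 232 (225 to 240) in stroma and 82.1 (68.7 to 97.3) in tendon or periosteum. The intervals of neighbours in these orders did not overlap. Osteoblasts had 5.21 and 5.22 CPM, close to the 3.75 and 2.57 of erythroid cells. Pericytes had 10 UMIs in the younger mouse and 3 in the older, or 30.1 (14.4 to 55.4) and 5.86 (1.21 to 17.1) CPM.

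Serpina3m, the direct neighbour of Serpina3n, was low everywhere and followed its outline. It was at 13.6 (12.02 to 15.3) in young stroma, 11.9 (10.4 to 13.5) in young fibroblasts and 9.60 (5.37 to 15.8) in young tendon or periosteum. In the old mouse fibroblasts had 14.0 (12.1 to 16.2), stroma 7.45 (6.24 to 8.83) and tendon or periosteum 6.22 (2.98 to 11.4). In the young mouse the intervals of the 3 groups overlapped. Serpina3i was near its limit of counting, with 23 UMIs in young and 5 in old stroma.

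**Figure D1:**
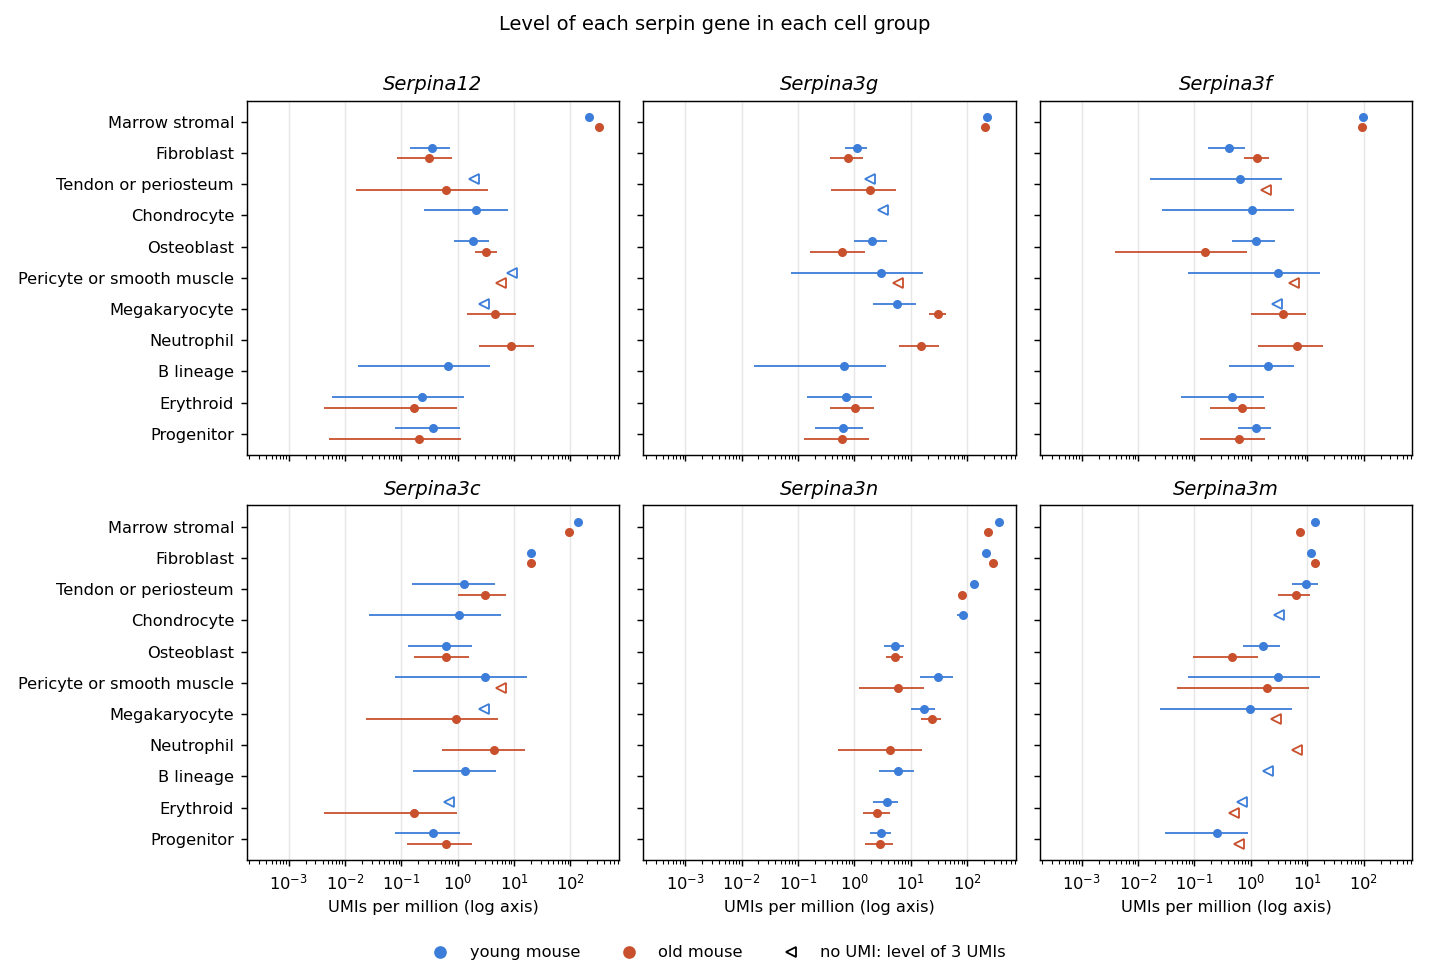
Level of 6 serpin genes in each cell group, in CPM on a log axis, with exact Poisson 95% intervals as bars. Blue points are the young and red points the old mouse, open triangles stand at 3 UMIs where a group had none, and groups with fewer than 50 cells in a mouse are not drawn. Serpina12, Serpina3g and Serpina3f are far higher in marrow stroma than in the other groups drawn, and Serpina3g also shows in old megakaryocytes. For Serpina3n and Serpina3m the fibroblast point lies below stroma in the young and above it in the old mouse.

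In both mice, 4 of the 7 members (Serpina12, Serpina3g, Serpina3f and Serpina3c) were highest in marrow stroma. A level of stroma at least 2-fold above the other groups in both mice was found for 6 members, beside 14.2% of the 16823 genes with enough UMIs, and Serpina3m (2.21 and 1.35) was the one outside. The ratios of Serpina3n just inside were 3.37 and 2.08. These contrasts chose the genes, so nothing is read from either count. The share of all genes that were highest in stroma in both mice was not computed.

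Free RNA puts single UMIs into cells that do not make a gene, and erythroid cells, which should lack these serpins, show how often. With every cell thinned to 2000 UMIs, Serpina3n was found in 46.5% of young and 32.1% of old stromal cells but in 1.98% and 0.70% of erythroid cells. Serpina12 was found in 26.1% and 31.0% of stromal and in 0.40% and 0% of erythroid cells, where 0 of 286 allows up to 1.05%. At full depth, with median depths of 5547 and 8888 UMIs in stromal and 11796 and 14770 in erythroid cells, Serpina3n was found in 70.0% and 61.3% of stromal cells and Serpina12 in 42.9% and 54.2%. Serpina3g (31.6% and 26.5% thinned, 53.5% and 55.3% full), Serpina3c (23.9% and 16.9%, 48.1% and 45.1%) and Serpina3f (15.2% and 13.3%, 31.1% and 32.9%) lay between. Serpina3m was found in 3.36% of young and 1.76% of old thinned stromal cells, and in 0 of 252 and 0 of 286 erythroid cells, which allows up to 1.19% and 1.05%.

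Stromal cells differed in how many members they held, and how far sampling alone would give these shares was not tested. Of 2920 young and 1823 old thinned stromal cells, 20.8% and 30.3% had no member UMI, 33.4% and 32.9% had 1 member, 28.2% and 25.0% had 2, and 13.5% and 9.0% had 3. The values that follow are at full depth, where deep cells hold more UMIs of any gene. The 1% of cells with the most UMIs of a gene held 7.66% (Serpina3c) to 15.9% (Serpina3f) of its stromal UMIs in the young mouse and 8.66% to 18.8% of them in the old one, among Serpina12, Serpina3c, Serpina3f, Serpina3g and Serpina3n. Single cells reached 41 young and 88 old UMIs for Serpina12 and 35 and 46 for Serpina3n.

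Which members shared cells was read from thinned stromal cells, and it is a description because cells are not replicates and counts are sparse. Serpina3f and Serpina3g, neighbours with related promoters, were found together most clearly. The level of Serpina3g was 364 CPM in young cells with a Serpina3f UMI and 215 in those without, a ratio of 1.69 (1.49 to 1.92). In the old mouse it was 368 against 173, a ratio of 2.12 (1.78 to 2.52). The reverse split gave 133 against 82.4 young and 158 against 70.2 old CPM of Serpina3f. These were the only 2 of 30 ordered pairs with a ratio of at least 1.5 in both mice, while 9 reached it at full depth, where deep cells more often hold a UMI of any gene. Because the copies are alike, a read of one gene assigned to the other would also place both in the same cell.

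Serpina3c and Serpina3f kept company mainly in the old mouse, where the level of Serpina3f was 2.07 times (1.62 to 2.62) as high in cells with a Serpina3c UMI, against 1.33 times (1.10 to 1.59) in the young. Serpina3n, whose upstream sequence is closest to that of Serpina3c, was 1.32 and 1.37 times as high in cells with a Serpina3c UMI. Serpina3g was 1.45 times (1.29 to 1.62) as high in young and 1.51 times (1.27 to 1.80) as high in old cells with a Serpina3c UMI. The ratio of Serpina12 was smaller, and its level in cells with a Serpina3g UMI was 1.33 times (1.19 to 1.496) that in cells without in the young and 1.30 times (1.15 to 1.48) in the old. Split by Serpina3c the ratios of Serpina12 were 0.98 young and 1.27 old, by Serpina3n 0.87 and 1.15, and by Serpina3f 1.09 and 0.94. Serpina3m, which is sparse, was 2.54 times (1.66 to 3.96) as high in young and 1.45 times (0.66 to 3.09) as high in old cells with a Serpina3n UMI.

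**Figure D2:**
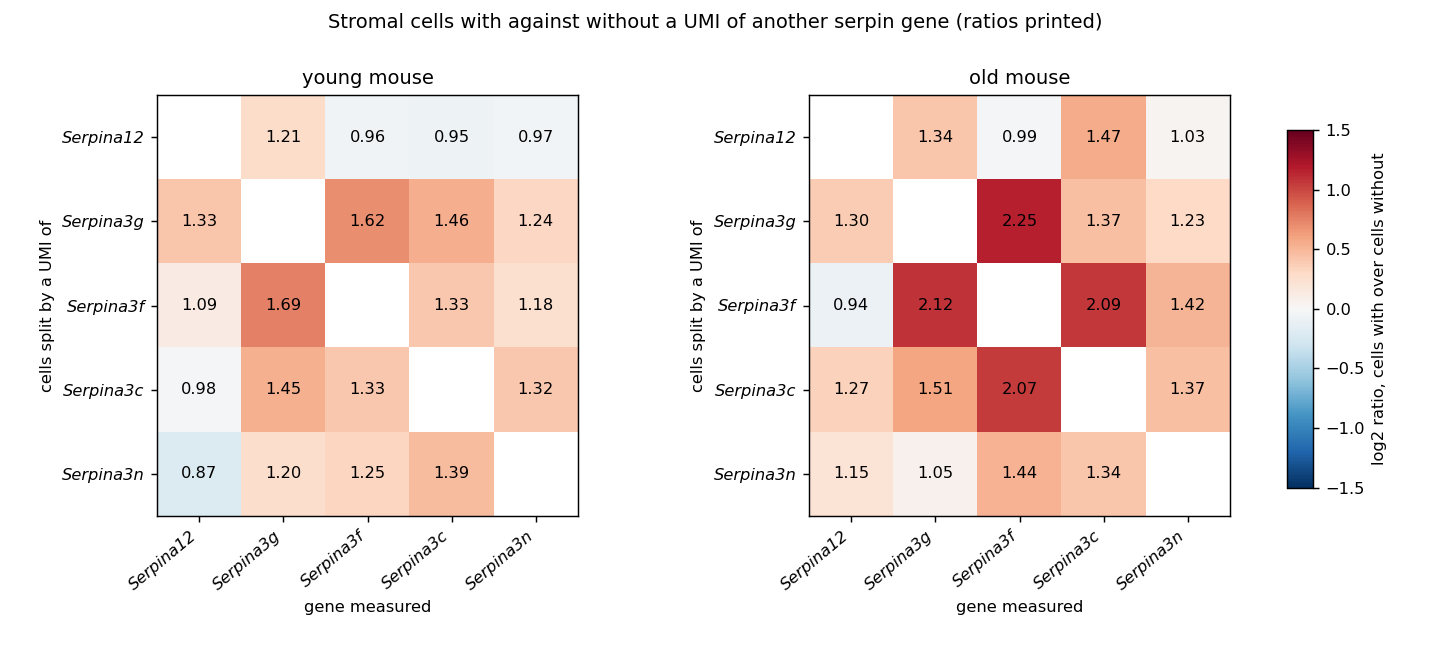
Ratio of the level (CPM) of the gene on the horizontal axis in thinned stromal cells with a UMI of the gene on the vertical axis over that in cells without, for the young (left) and old mouse (right), with the colour on a log2 scale. Serpina3m and Serpina3i, which have few UMIs, are not drawn. The darkest squares, at 1.62 to 2.25, join Serpina3f and Serpina3g in both mice, and in the old mouse Serpina3f and Serpina3c, while the squares of Serpina12 lie between 0.87 and 1.47.

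The stromal cells of each mouse were next ordered by the summed UMIs of a gene list, leaving out the members and the markers of the gate, and divided into 3 bins of at most 974 young and 608 old thinned cells. Acute phase genes run downstream of interleukin 6 and STAT3 in liver, and human SERPINA3 is one of them. Over the list of IL-6, STAT3 and acute phase genes, the 5 Serpina3 genes other than Serpina3i were higher in the top than in the bottom bin in both mice. Serpina3f went from 61.7 over 82.2 to 151 CPM in the young mouse, a ratio of 2.46 (1.98 to 3.06), and from 41.2 over 79.8 to 160 in the old, 3.87 (2.83 to 5.40). Serpina3n went from 275 over 351 to 505 in the young, 1.83 (1.65 to 2.04), and from 156 over 224 to 296 in the old, 1.90 (1.59 to 2.28). Serpina3g (1.91 and 2.13), Serpina3c (1.89 and 2.01) and Serpina3m (2.00 and 2.66, the latter with an interval of 0.99 to 8.31) had ratios of like size. Serpina3i had too few UMIs to compare. Serpina12 had ratios of 1.14 (1.00 to 1.31) and 1.09 (0.94 to 1.26). How many of all genes rose over these bins was not computed, so nothing is read from the number of Serpina3 genes. A sum of UMIs gives most weight to list genes with many UMIs, such as Hp (haptoglobin) here.

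Over the interferon response list, the Serpina3 genes parted. Serpina3f had a ratio of 1.61 (1.31 to 1.99) young and 3.13 (2.33 to 4.26) old, and Serpina3g, known as an interferon-induced gene, 1.26 and 2.34. Serpina3n, at 1.12 (1.01 to 1.25) and 0.98 (0.83 to 1.17), was about level. Serpina12 had ratios of 1.01 and 1.11. Over the adipocyte and insulin list Serpina12 also had ratios above 1, going from 157 over 237 to 262 in the young, 1.67 (1.45 to 1.94), and from 177 over 301 to 468 CPM in the old mouse, 2.64 (2.25 to 3.11). The largest ratios there were those of Serpina3m, 2.52 (1.46 to 4.55) and 6.32 (1.86 to 33.4), from low levels. Serpina3c (2.00 and 2.51), Serpina3f (2.31 and 1.98), Serpina3n (1.69 and 2.13) and Serpina3g (1.59 and 1.82) had ratios above 1 too. Summed UMIs of the 7 stromal markers gave ratios of 1.51 and 1.95 for Serpina12 and 1.46 and 1.98 for Serpina3n, so cells richer in stromal RNA held more of both. The part of that in the list results was not tested.

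**Figure D3:**
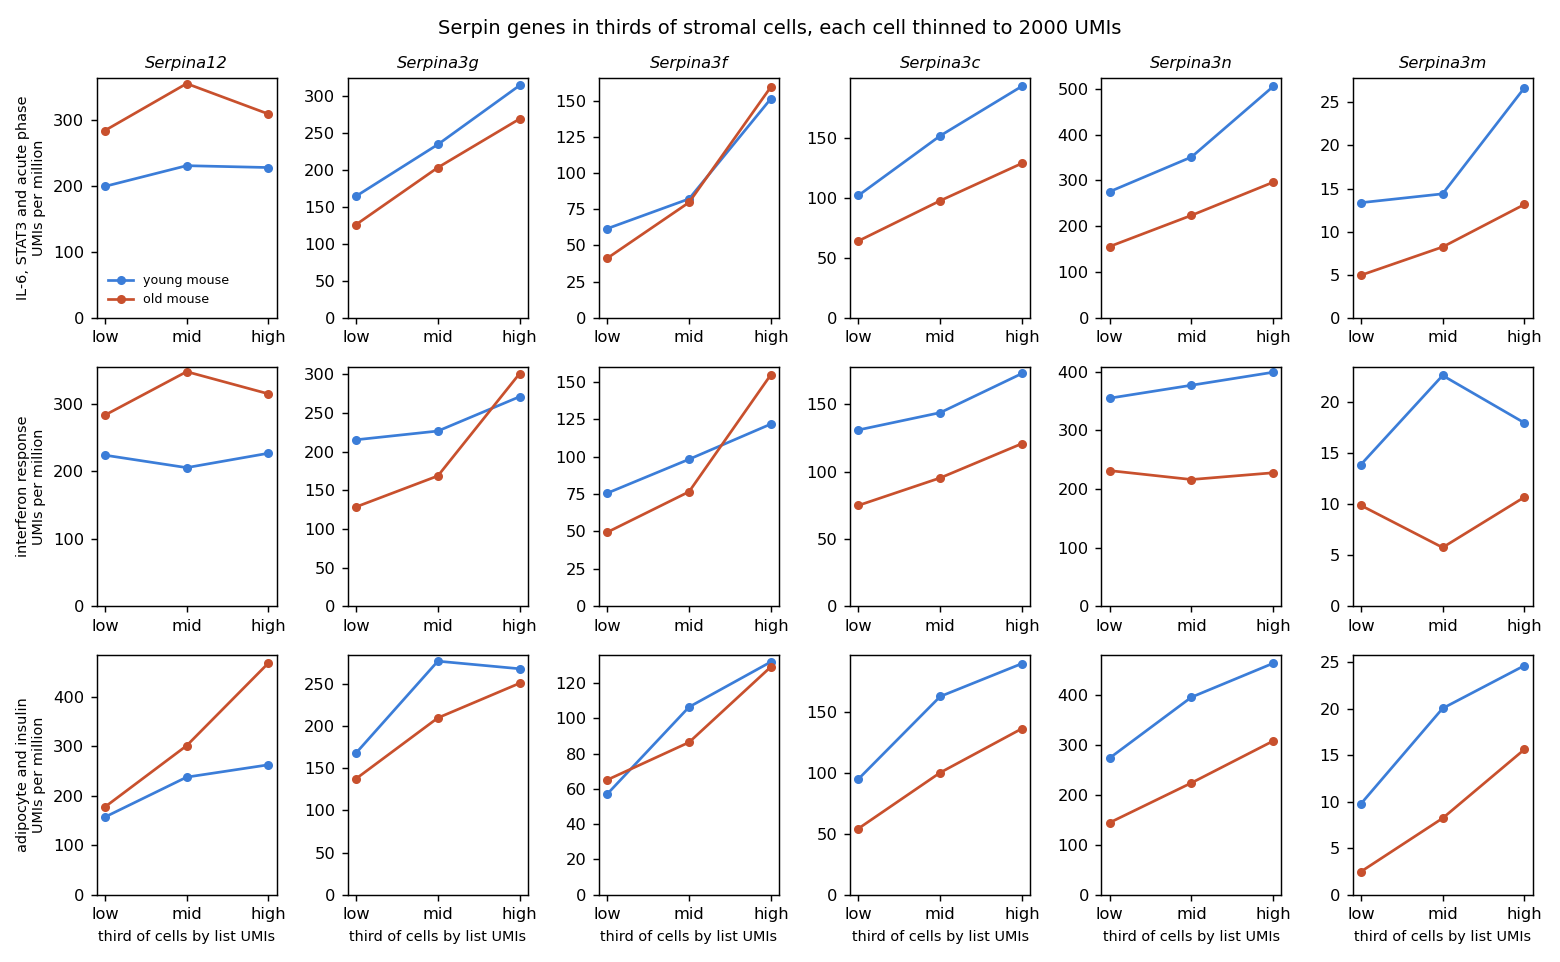
Level of 6 serpin genes (CPM, axes from 0) in the low, mid and high bins of stromal cells ordered by summed UMIs of 3 gene lists, for the young (blue) and old mouse (red), each cell thinned to 2000 UMIs. In the top row the Serpina3 genes rise from low to high, with Serpina3f from 61.7 to 151 in the young mouse, and Serpina12 stays between 199 and 230 in that mouse. In the bottom row Serpina12 rises, from 177 to 468 in the old mouse.

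Between the mice, Serpina12 and Serpina3n went opposite ways in stroma. Serpina12 was 1.49 times (1.43 to 1.55) as high in the old as in the young mouse. Serpina3n was at 0.630 times (0.606 to 0.654) the young level and Serpina3c at 0.685 times (0.644 to 0.728). Serpina3m, from 271 and 133 UMIs, was at 0.548 times (0.442 to 0.677) and Serpina3i, from 23 and 5 UMIs, at 0.243 times (0.0721 to 0.653). The neighbours Serpina3g, at 0.921 times (0.882 to 0.962), and Serpina3f, at 0.979 times (0.916 to 1.05), were nearly level. A change of at least 1.5-fold was found for 3 of the 7 members, all lower in the old mouse, beside 11.8% of all 14529 genes in either direction, 6.72% higher and 5.09% lower. Serpina3c and Serpina12 lay just outside that limit. The median of all genes was shifted by 0.02 on the log2 scale.

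In fibroblasts Serpina3n was higher in the old mouse, with 4253 UMIs young and 3743 old and a ratio of 1.34 (1.28 to 1.40), and in tendon or periosteum it was lower, with a ratio of 0.616 (0.492 to 0.770). Serpina3c was level in fibroblasts, at 0.989 (0.841 to 1.16), and Serpina3m stood at 1.18 (0.970 to 1.44). Serpina3f had 8 young and 17 old UMIs there, 9 of the 17 in 1 cell. Of the fibroblast genes, 12.2% changed at least 1.5-fold in either direction. The spread between animals of an age is not known from these libraries.

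**Figure D4:**
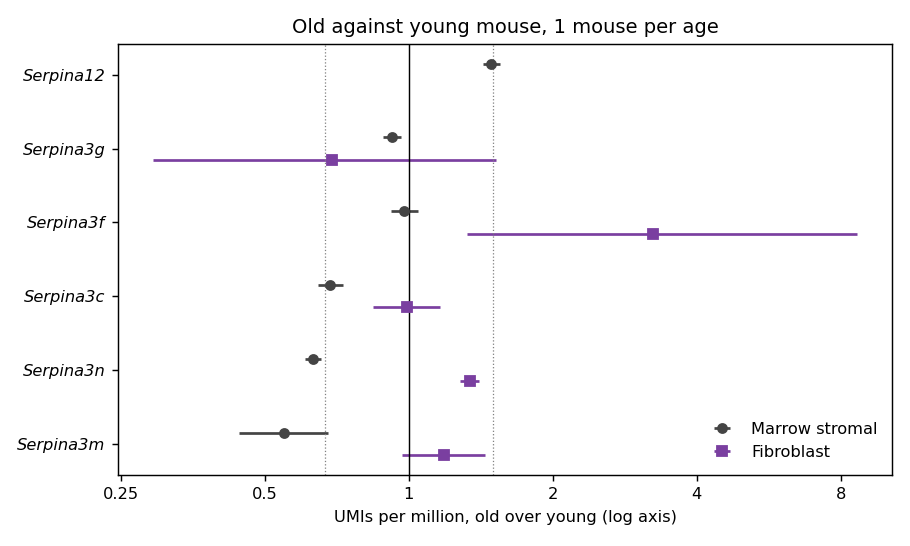
Level in the old over the young mouse (CPM, log axis) for 6 serpin genes in marrow stroma (grey circles) and fibroblasts (purple squares), with exact 95% counting intervals as bars and dotted lines at 1.5-fold. Serpina12 is not drawn in fibroblasts, where it had 7 and 4 UMIs. In stroma Serpina12 lies at 1.49 and Serpina3n at 0.630, and in fibroblasts Serpina3n lies at 1.34.

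The same comparison for the lists puts these values in context. Of 16 interferon response genes, 10 were at least 1.5-fold higher and none lower in old stroma, with a median of 0.82 on the log2 scale, for example Iigp1, an interferon-induced GTPase (203 to 461 CPM), and the chemokine Cxcl9 (136 to 307), while Psmb8 (209 and 208) and Irf1 (184 and 150) were not. Of 12 adipocyte genes with enough UMIs, 5 were higher and none lower (median 0.47), with the hormone Adipoq, a marker of the gate, at 1185 and 1889 and the lipase Lpl at 1618 and 2282. The IL-6 list had 1 gene higher and 1 lower of 16 (median 0.14), with Hp, haptoglobin, at 5747 and 3479 and C3 of complement at 392 and 568. The glucocorticoid list had none higher and 1 lower of 11 (median −0.12), with Mt1, a metallothionein, at 852 and 1149.

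Serpins of other clades were also present in stroma. Of 11 measured serpins of other clades, none was 1.5-fold higher and 1 was lower, with a median of 0.05. Serpine2, protease nexin 1, was at 6357 and 4788 CPM, Serping1, the C1 inhibitor, at 2779 and 2875, Serpinh1, the collagen chaperone Hsp47, at 713 and 736, and Serpinf1, pigment epithelium-derived factor, at 275 and 311. Among proteases, 2 of 8 measured were higher and none lower (median 0.17), with the cathepsins Ctsl at 958 and 1010 and Ctsb at 484 and 566 and the serine protease Prss23 at 165 and 258. The Serpina3 copies outside the member list were all but absent from stroma: Serpina3a had 1 UMI in the young mouse, and Serpina3b, Serpina3j and Serpina3k had none in either, which allows up to 3 UMIs.

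Cells with CD24 protein, an antibody count above 318 in the younger mouse and 403 in the older library, were compared with the remaining cells of the same mouse. The CD24 antibody counts had no part in choosing the members. UMIs were summed per mouse and status, and the 4 sums were tested with edgeR's quasi-likelihood test with the mouse as a block. In the stromal group (168 and 62 CD24+ against 2953 and 1846 CD24− cells), 3 of the 6 members tested were lower in CD24+ cells, beside 1.55% of 13700 genes that were lower and 6.28% that changed either way, and none was higher. Serpina3n was at 383 CPM in CD24− and 241 in CD24+ cells of the young mouse and at 238 and 124 in the old, a fall by 0.75 in log2 units (SE 0.14, adjusted p = 0.0116). Serpina3c went from 142 to 94.9 and from 95.9 to 52.8, and fell by 0.66 (SE 0.14, adjusted p = 0.0234). Serpina3f went from 99.5 to 68.6 and from 96.6 to 50.5, and fell by 0.66 (SE 0.15, adjusted p = 0.0255). The members had been picked for high levels in stroma, and these CD24+ cells held less RNA of the stromal markers. Nothing is therefore read from the count of 3 of 6.

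Serpina3g was lower in CD24+ stromal cells of both mice, at 237 and 156 in the younger mouse and 213 and 163 in the older, but did not pass in edgeR's test (adjusted p = 0.0872). It passed in edgeR with a mixture model for CD24 (adjusted p = 0.0318) and without the filter on low counts (adjusted p = 0.0210). It did not pass in DESeq2 (adjusted p = 0.408), or in edgeR without predicted doublets (0.259) or without the block (0.183). Nor did it pass in edgeR with thinned cells (0.855), the top 10% of cells by antibody (0.441) or at most 10% mitochondrial UMIs (0.0679). Serpina12 was at 214 and 208 CPM in young and 316 and 335 in old CD24− and CD24+ cells, a difference of 0.06 in log2 units (SE 0.13, adjusted p = 0.875 in edgeR). Serpina3m was at 13.9 and 10.9 CPM young and 7.77 and 1.15 CPM old, the last from 1 UMI, and did not pass (adjusted p = 0.452, edgeR). Whether the change of Serpina12 differed from that of the Serpina3 genes was not tested. With the mouse left out of the model no member passed in edgeR (lowest adjusted p = 0.141, Serpina3f, while 2 members had an unadjusted p under 0.05), and in DESeq2, which kept the block, Serpina3n passed alone (adjusted p = 0.0121).

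The CD24+ stromal cells differed in other ways. The summed stromal markers were at 21643 against 34030 CPM in CD24− cells of the young and 18684 against 29932 of the old mouse, and Adipoq itself fell by 0.75 on the log2 scale (adjusted p = 0.00459, edgeR). B lineage markers summed to 155 against 6.42 and 55.1 against 2.18, tendon or periosteum markers to 789 against 141 and 377 against 228, and chondrocyte markers to 321 against 68.2 and 170 against 127. Erythroid markers, at 452 against 1027 young and 1628 against 129 old, and neutrophil markers, at 5462 against 3430 and 210 against 4913, went opposite ways in the mice. Median depth was 9939 against 5382 and 11558 against 8805 UMIs. Predicted doublets were 38 of the 168 young and 4 of the 62 old CD24+ cells. Without predicted doublets Serpina3n (adjusted p = 0.0168) and Serpina3c (0.0460) passed in edgeR and Serpina3f (0.132) did not. With every cell thinned to 2000 UMIs Serpina3n alone passed (adjusted p = 0.0391, edgeR). The part of these markers in the results was not tested.

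Over all mesenchymal groups together (427 and 160 CD24+ against 5770 and 3262 CD24− cells), 5 of 6 members fell, beside 6.68% of 15011 genes that were lower and 14.4% that changed either way. Serpina3n went from 264 to 154 CPM in young cells and from 211 to 91.6 in old ones, and fell by 0.91 in log2 units (SE 0.11, adjusted p = 0.000270, edgeR). Serpina3c fell by 0.88 (SE 0.13, adjusted p = 0.000820, edgeR), Serpina3f by 0.87 (SE 0.15, adjusted p = 0.00255) and Serpina3g by 0.70 (SE 0.10, adjusted p = 0.000962). Serpina3m, from 11.8 to 6.21 and from 8.78 to 1.54, fell by 1.26 (SE 0.32, adjusted p = 0.0220, edgeR). Serpina12 was at 91.2 and 81.4 in the younger mouse and 145 and 114 in the older and did not pass (adjusted p = 0.279, edgeR), though with a mixture model for CD24 it fell by 0.51 and passed (adjusted p = 0.0337, edgeR). The mix of groups differed here, with stromal markers at 9048 against 15381 and 6684 against 14738 CPM and osteoblast markers at 10153 against 5650 and 17457 against 8536, so fewer stromal cells and less RNA per stromal cell cannot be told apart in these sums. The members had been picked for high levels in stroma, so in sums with fewer stromal markers nothing is read from the count of 5 of 6. Without the block only Serpina3g passed in edgeR (adjusted p = 0.0490). Serpina3m lost its call in DESeq2 (adjusted p = 0.0901) and in edgeR with the mixture model (0.0549), with at most 10% mitochondrial UMIs (0.0530) and with thinned cells (0.360), as did Serpina3f with thinned cells (0.164).

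**Figure D5:**
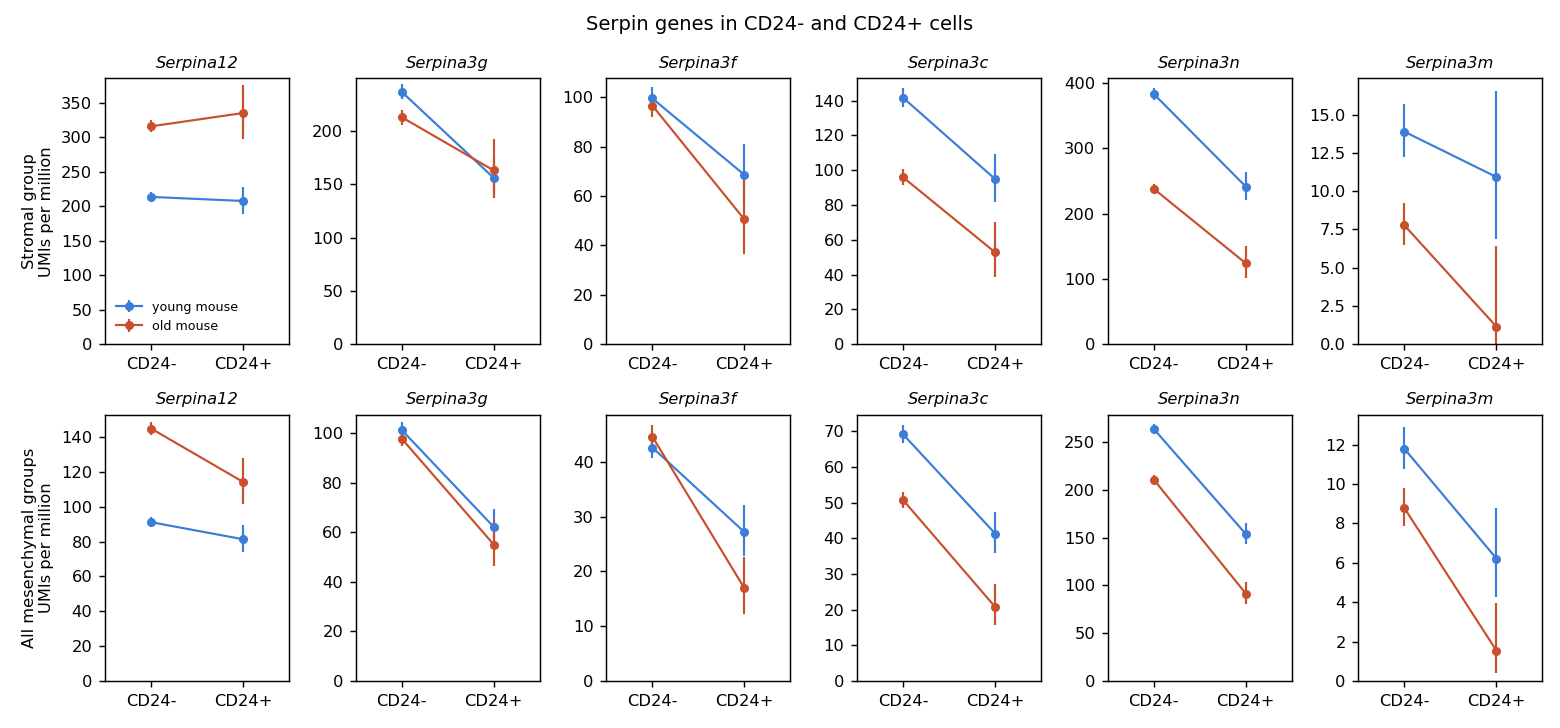
Level of 6 serpin genes in CD24− and CD24+ cells of the stromal group (top) and of all mesenchymal groups (bottom), in CPM from 0, with exact Poisson 95% intervals and a line for each mouse (blue young, red old). Serpina3n, Serpina3c, Serpina3f and Serpina3g slope downward in both mice, and Serpina12 in the stromal group is flat, at 214 and 208 in the young mouse.

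Some genes of the IL-6, adipocyte and interferon lists fell with the Serpina3 genes in stromal cells. Of 13700 genes tested there, 1.55% were lower and 6.28% changed either way. In stromal cells, 5 of 16 genes of the IL-6 list were lower with CD24 and none higher in edgeR's test (median −0.37, against −0.02 over all genes), among them C3 of complement (fell by 0.98, SE 0.17, adjusted p = 0.00865), Steap4, a metalloreductase (0.79 lower, adjusted p = 0.00734), Osmr, the oncostatin M receptor (0.72 lower, adjusted p = 0.0129), and Hp (0.60 lower, adjusted p = 0.00765). The adipocyte list had 3 of 11 lower and none higher (median −0.40), the interferon list 2 of 16 lower and none higher (median −0.54), and the glucocorticoid list 1 of 11 lower and none higher (median −0.02). Of 10 serpins of other clades 1 was higher, Serpinf1, and 2 were lower, Serping1 and Serpine2. Of 3 clade A serpins outside the member list 1 was higher, Serpina1d (4.10 higher, SE 0.47, adjusted p = 0.000704, edgeR), and none lower. Serpina1a did not pass in stromal cells (adjusted p = 0.374, edgeR). The stromal UMIs of both came from few cells and nearly all from the young mouse, as given under Other observations. The call of Serpina1d therefore rests mainly on 1 animal. Over the mesenchymal groups 4 of 5 were higher, Serpina1a, Serpina1b, Serpina1c and Serpina1d, and none lower, and how many cells carried these calls was not examined. Of 8 proteases in stromal cells 1 was higher, Htra1, and none lower. Over the mesenchymal groups, 14 of 16 interferon genes, 7 of 16 IL-6 genes and 6 of 12 adipocyte genes were lower and none higher. Of all 15011 genes tested there, 6.68% were lower and 14.4% changed either way.

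The genes with the pattern most like each member were taken from Pearson's r of log2 levels over 19 combinations of group and mouse, among 13421 genes. These points share libraries and depth, and a gene present in 1 group only gives a high r with any other such gene. The members had been picked for these same levels, and Adipoq is a marker of the gate, so its nearness to members high in stroma is not a separate result. Serpina12 was closest to Gm16685 (0.987), Adipoq (0.986), Serpina3f and Kng1, kininogen (both 0.983), and Cbln1 (0.980). Serpina3f was closest to Adipoq and Serpina12 (both 0.983), then Gm16685 (0.981), Kng1 (0.976) and Esm1 (0.974), and Serpina3g to Esm1 (0.954), Serpina3f (0.951), Serpina12 (0.946), Adipoq (0.938) and Gpr50 (0.932). Serpina3c was nearest to Aldh1a2 (0.976), which makes retinoic acid, Ms4a4d and Rspo2 (both 0.970), Gm50143 (0.967) and Dpep1 (0.966). Serpina3n was nearest to the glutamate transporter Slc1a3 (0.935), complement C4b (0.917), Lbp (0.915), Svep1 (0.914) and Gm15902 (0.913), and Serpina3m to Hic1 (0.965), complement factor Cfb (0.950), Tmem106a (0.942), Egfr (0.939) and Fbn1 (0.937). Serpina3n had an r of 0.886 with Serpina3m and 0.767 with Serpina3c but 0.489 with Serpina12 and 0.456 with Serpina3g. The nearest genes depended on the scale: 14 of these 30 were found with 1 in place of 5 added before the log, and 1 of 30 by rank.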

How the data were processed

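CITE-seq of sorted CD45− lineage-depleted femur and tibia cells gave 1 matrix for each of 2 INK-ATTAC mice. The deposited values are raw counts, whole numbers of UMIs per gene or antibody and cell, and the authors had applied no normalization. Cell Ranger 6.1.1 wrote them per the file headers, and per the labels the build was mm10. Cells with under 200 genes or over 20% mitochondrial UMIs were left out (1308 young and 1122 old barcodes), and the 2 libraries shared 19 kept barcodes. Median depth was 6385 and 9711 UMIs. Doublets predicted by Scrublet (scanpy 1.11.5; 269 and 57 cells) were kept, and leaving them out was an alternative.

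A cell joined the group with the largest share of its marker list detected, if at least 0.6 of the list had a UMI. This left 29.6% of young and 27.6% of old cells unassigned or tied. Groups are ranges of a score rather than types. Thinning to 2000 UMIs left out 770 and 496 shallower cells. Old over young, stroma over the other groups and levels within stroma are ratios of summed UMIs with exact 95% intervals, and ratios over all genes used genes with at least 20 UMIs. CD24+ cells lay above the Otsu threshold of the log antibody count of their library. Sums of UMIs were tested in edgeR 4.0.16 (R 4.3.3; TMM, filterByExpr, quasi-likelihood F test, two-sided, Benjamini-Hochberg adjustment over all genes, threshold 0.05), with the mouse as a block because a mouse gave both of its sums. The spread is largely borrowed from other genes, since 4 sums leave 1 residual degree of freedom. DESeq2 1.42.0 was an alternative. The test was tried on simulated counts.

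All members were named. Beside them, the 5 genes most like each member with at least 200 UMIs were named, as were up to 4 of the highest genes in stroma, and up to 4 of the largest passing changes with CD24, of each of 7 lists. The members, lists and tests were chosen with earlier results of these data known. Upstream sequences were read with Python 3.11.15 from RefSeq promoters, leaving out bases inside the gene, and aligned with Biopython 1.88. The intervals and limits cover counting error only.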

Additional observations from a re-analysis of the deposited data

Results flagged for a closer look

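Serpina3n went opposite ways between the 2 mice in 2 groups of cells, at 0.630 times the young level in stroma of the old mouse and at 1.34 times in fibroblasts. The difference between the groups was not tested, as there was 1 mouse per age.

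UMIs of the members were also present in the barcodes left out by the filter, above the 3 counts that a count of 0 allows. In the 1308 young barcodes left out there were 54 UMIs of Serpina3n, 29 of Serpina3g, 18 of Serpina12, 12 of Serpina3c and 9 of Serpina3f. In the 1122 old ones there were 30 of Serpina3n, 22 of Serpina3f, 18 of Serpina3g, 10 of Serpina12 and 6 of Serpina3c.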

How the results depend on the processing

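The counts of members highest in stroma (4), 1.5-fold changed between the mice (3) and 2-fold higher in stroma (6) stayed within 1 of these values under every alternative tried, and a ratio could not be computed for Serpina3i, Serpina3f or Serpina12 where an alternative left no UMI outside stroma. In stroma, the old over young ratio ranged from 1.44 to 1.51 for Serpina12, from 0.597 to 0.640 for Serpina3n, from 0.650 to 0.694 for Serpina3c and from 0.242 to 0.534 for Serpina3i, which has few UMIs. For Serpina3n in fibroblasts it ranged from 1.31 to 1.70, the highest with the stricter gate. Pairs found together numbered 2 when thinned and 9 at full depth. Of the 30 genes most like the members, 14 were found with 1 added before the log and 1 by rank.

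The CD24 tests depended on the model more. In stroma, 861 genes passed (648 higher and 213 lower), against 479 in DESeq2 (423 and 56), 198 without the mouse as a replicate block (194 and 4), 1408 without a filter (876 and 532), 1387 with the top 10% of cells by antibody, 335 without doublets and 311 with thinned cells. Members that passed numbered 3, against 1 in DESeq2, 0 without the block (2 at an unadjusted p under 0.05), 1 with thinned cells, 2 without doublets, and 4 both with the mixture model and without the filter. Over the mesenchymal groups 2160 genes passed, against 995 in DESeq2, 293 without the block and 944 with thinned cells, and 5 members, against 1 without the block, 3 with thinned cells, 4 in DESeq2 and 4 with at most 10% mitochondrial UMIs. With the mixture model Serpina12 passed there and Serpina3m did not. For Serpina12 the sign of the change in stroma turned, to −0.24 with a mixture model for CD24, −0.0723 with at most 10% mitochondrial UMIs and −0.0402 without the old mouse (0.0857 without the young), and over the mesenchymal groups to 0.0203 with the top 10% of cells. Its cause was not tested. The depth of 62 CD24+ stromal cells in the old mouse limits the low genes Serpina3m and Serpina3i.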

Other observations

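Outside the connective tissue groups, Serpina3g had its highest level in megakaryocytes of the old mouse, with 33 UMIs in 52 cells or 30.3 CPM (20.9 to 42.6), against 6 UMIs in 69 cells or 5.75 (2.11 to 12.5) in the young mouse. It was found in 28.8% of the old and 8.70% of the young megakaryocytes at median depths of 11243 and 10566 UMIs, 10 of the 33 UMIs came from 1 cell, and none was left in 49 old cells after thinning to 2000 UMIs, which allows up to 6.12%.

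Serpina1a and Serpina1d, copies of alpha-1-antitrypsin, had 193 and 131 UMIs in young stroma, from 24 and 14 of 3121 cells, and 2 and 3 UMIs in old stroma. Serpina1e had 43 UMIs in old stroma, from 2 cells, and none in the young.

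Over the glucocorticoid response list, Serpina12 was lower in the top than in the bottom bin of stromal cells, with ratios of 0.68 (0.59 to 0.79) in the young and 0.73 (0.63 to 0.84) in the old mouse, while Serpina3f had ratios of 1.2 and 1.66. Over the protease list Serpina3f had ratios of 0.73 and 0.61 and Serpina3g of 0.77 and 0.81.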
